A study of Mus musculus with 20 samples.

Results

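The 36 genes described here make cholesterol and fatty acids or control that synthesis. They were taken by name from a table of 45802 gene entries, and all 36 were found. They fall into 18 enzymes of the mevalonate and sterol pathway, 5 regulators and sterol carriers (Srebf2, Insig1, Stard4, Srebf1 and Mlxipl) and 13 genes of fatty acid synthesis, desaturation, elongation and esterification. Expression was measured by bulk RNA sequencing of 20 E17.5 fetal mouse livers (C57BL/6) from dams fasted for 24 h. There were 5 groups of 4 fetuses, each with 2 females and 2 males. HetDam_HetFetus held Ppara heterozygous fetuses of heterozygous dams, KODam_HetFetus held heterozygous fetuses of Ppara knockout dams, and KODam_KOFetus held knockout fetuses of knockout dams. No group of the Ppara arm was wild type, so its controls carried a single working allele. FloxDam_FloxFetus held Cpt2f/f fetuses of Cpt2f/f dams, and Cpt2LKODam_FloxFetus held Cpt2f/f fetuses of dams that also carried Albumin-Cre, which deletes Cpt2 in hepatocytes. The labels name no tissue for the Ppara knockout, while the Cpt2 deletion was in the dam and not in the fetus, whose alleles stay floxed. Where sample titles and design text call the Cpt2 controls wild type, the genotype labels say Cpt2f/f and are followed.

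Sterol regulatory element-binding proteins (SREBPs) are transcription factors held in the endoplasmic reticulum by INSIG proteins while sterols are plentiful, and carried by SCAP to the Golgi for cleavage when sterols fall. Srebf2 encodes the form that mainly drives cholesterol synthesis genes, and Srebf1 the form that, with the carbohydrate-responsive factor encoded by Mlxipl, drives fatty acid synthesis genes. In the liver these genes are known to fall in fasting, while PPARA, the nuclear receptor encoded by Ppara, drives fatty acid oxidation, for which CPT2 brings long-chain acyl groups into mitochondria.

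Values are log2 expression as the authors normalized it, and a difference is the first group's mean minus the second's, with the standard error of the fit and 4 libraries per group. A member was called higher or lower where limma's adjusted p over all tested genes was under 0.05. Of the 36 members 35 passed the minimum of a log2 value of 0 in at least 4 libraries. Thrsp, which encodes a thyroid hormone-responsive protein of lipogenesis, did not: its 16 values lay between -4.80 and -1.07, and 4 libraries had none. Nothing in the labels ties each library to a separate dam, and a number in the sample descriptions is shared by 3 pairs of fetuses, presumed littermates. The p-values take every fetus as independent, although these pairs may share a dam. Spread between fetuses and spread between litters cannot be told apart.

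As a check of the groups, Ppara itself stood at 3.13 ± 0.281 (SD, n = 4) in HetDam_HetFetus, 2.56 ± 0.679 in KODam_HetFetus and 2.26 ± 0.27 in KODam_KOFetus, and whether its reads lie outside the deleted part is unknown. It was called lower in KODam_KOFetus than in HetDam_HetFetus (-0.87, limma adjusted p = 0.0237). Between KODam_KOFetus and KODam_HetFetus it was not called (-0.30, adjusted p = 0.682), so its level does not tell these fetal genotypes apart. Cpt2 stood at 4.00 ± 0.309 in FloxDam_FloxFetus and 3.90 ± 0.0534 in Cpt2LKODam_FloxFetus, whose fetal gene is intact. In the Ppara arm limma called Cpt2 lower in KODam_KOFetus than in KODam_HetFetus (-0.70, adjusted p = 0.0465) and HetDam_HetFetus (-0.55, adjusted p = 0.0206). Between KODam_HetFetus and HetDam_HetFetus it was not called (0.15, adjusted p = 0.485). Hepatocyte markers were present in every library, their summed level lying between 16.24 and 17.16 on the log2 scale. In 5 libraries the transcripts of another tissue stood at least 8 times above the median library: stomach and intestine in HetDam_HetFetus replicate 1, skeletal muscle in HetDam_HetFetus replicate 4 and KODam_KOFetus replicate 2, exocrine pancreas in Cpt2LKODam_FloxFetus replicate 2, and skin in FloxDam_FloxFetus replicate 4. Counts of called members, and the counts below 0 and medians of the comparisons they bear on, are also given without these 5 libraries, and HetDam_HetFetus then has only 2. In such tissue, fewer cells of a type and less RNA per cell cannot be told apart.

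**Figure D1:**
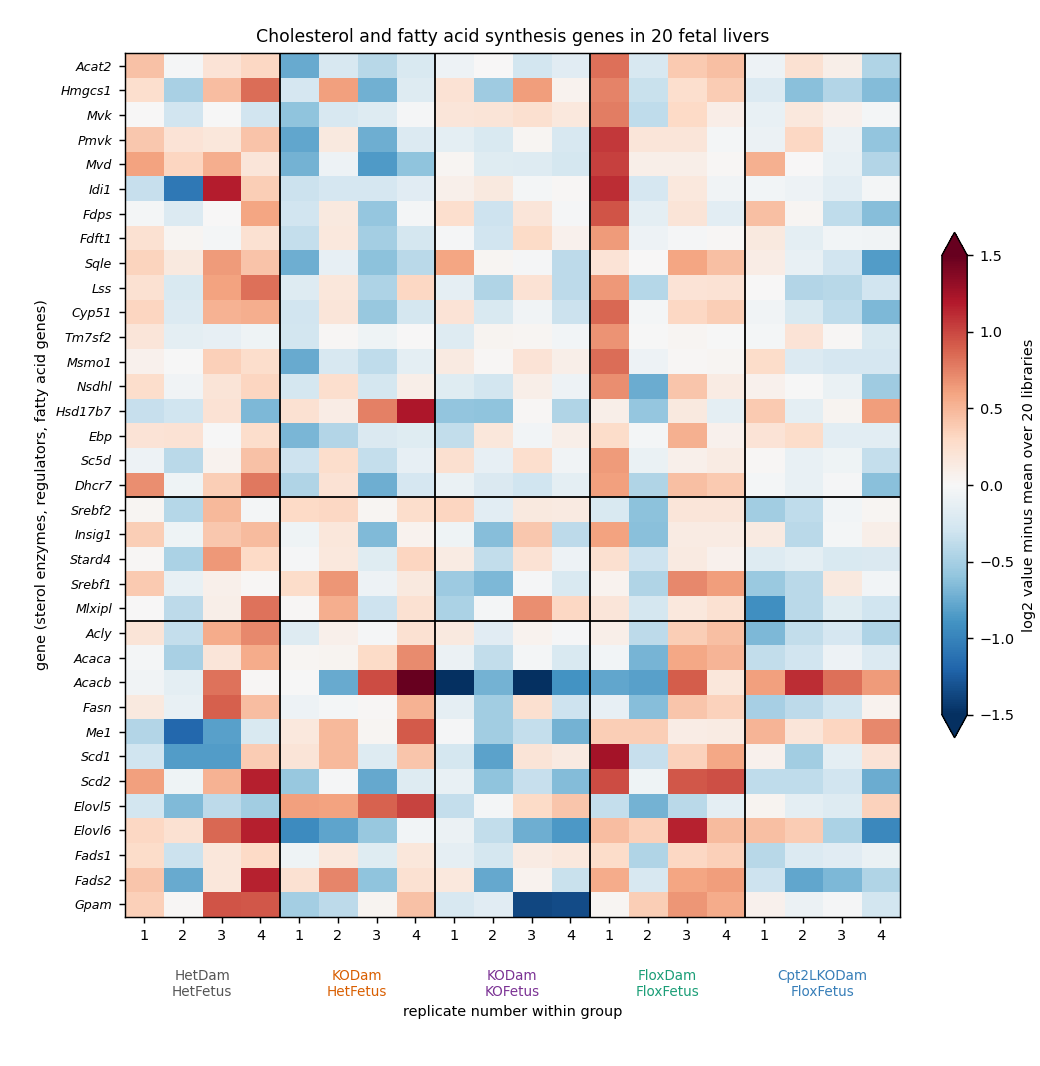
Each row is 1 of the 35 tested genes and each column 1 fetal liver library, numbered by replicate within its group. Colour is the log2 value minus the gene's mean over the 20 libraries (red higher, blue lower, ends of the scale at 1.5 and beyond), and horizontal lines part the sterol enzymes, the regulators and the fatty acid genes. Most sterol enzymes are blue in KODam_HetFetus replicates 1 and 3 and red in FloxDam_FloxFetus replicate 1.

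The sterol enzymes moved from library to library largely as a block. Within groups, after each group mean was removed, pairs of sterol enzymes had a median Pearson r of 0.536 over 20 libraries (153 pairs), pairs of fatty acid genes 0.44 (66 pairs) and mixed pairs 0.301 (216 pairs), beside 0.0912 for pairs of all tested genes. These are descriptions over libraries that share RNA quality and cell makeup. Cyp51 and Sc5d, both enzymes that turn lanosterol into cholesterol, were each other's closest members (r = 0.912), as were Acly and Acaca (r = 0.912), the enzymes that make cytosolic acetyl-CoA and turn it into malonyl-CoA. Dhcr7, the reductase of the last step to cholesterol, ran closest to Scd2, a stearoyl-CoA desaturase (r = 0.904). Ebp and Hsd17b7 stood outside the block, with a median r to the sterol enzymes of 0.229 and 0.0536. The mean deviation of the 18 sterol enzymes was 0.19, -0.14, 0.30 and 0.32 in HetDam_HetFetus replicates 1 to 4 and -0.43, 0.0364, -0.40 and -0.0809 in KODam_HetFetus. It was 0.00589, -0.16, 0.0684 and -0.12 in KODam_KOFetus. In the Cpt2 arm it was 0.70, -0.20, 0.24 and 0.13 in FloxDam_FloxFetus and 0.0878, -0.0543, -0.15 and -0.35 in Cpt2LKODam_FloxFetus. The groups of each arm overlapped on this mean, through HetDam_HetFetus replicate 2 and FloxDam_FloxFetus replicate 2, the lowest of their groups. The mean of the 12 tested fatty acid genes ran from -0.44 to -0.26 in KODam_KOFetus, all 4 libraries low, and from -0.12 to -0.0750 in Cpt2LKODam_FloxFetus, while it spread from -0.39 to 0.51 in HetDam_HetFetus.

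**Figure D2:**
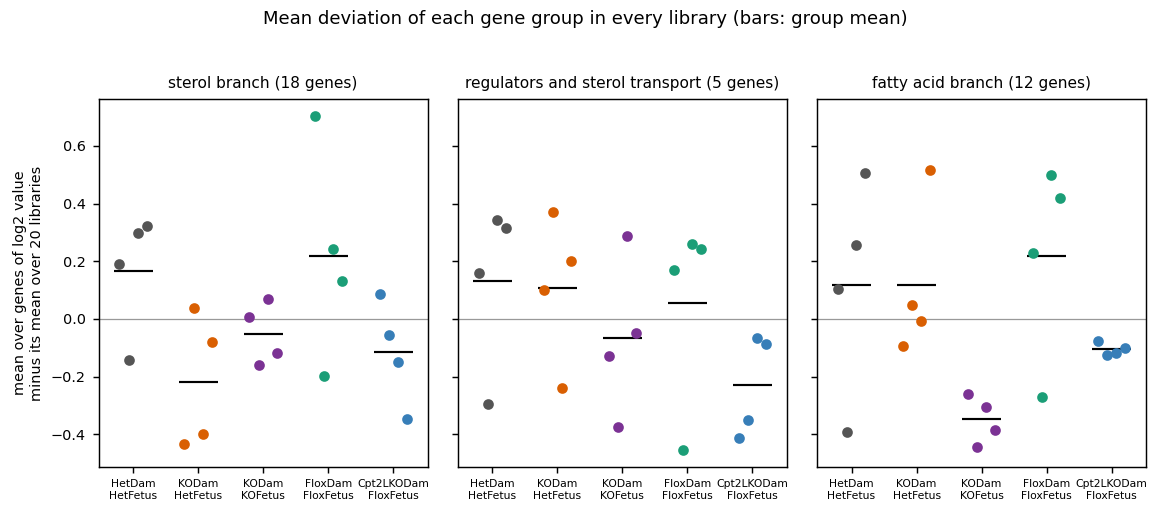
For each of the 3 gene groups, points are libraries (left to right, replicates 1 to 4), bars are the mean of the 4 libraries, and the vertical axis is the mean over the group's genes of the log2 value minus that gene's mean over 20 libraries. The sterol mean is highest in FloxDam_FloxFetus replicate 1 (0.70) and lowest in KODam_HetFetus replicate 1 (-0.43), and the fatty acid mean of every KODam_KOFetus library is at or below -0.26.

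Loss of Ppara in the dam was examined in fetuses that keep 1 working allele, by setting KODam_HetFetus against HetDam_HetFetus. When the dam was a knockout, 8 of 18 fetal sterol enzymes fell and 1 rose, from acetoacetyl-CoA thiolase at the start of the pathway to the reductase at its end. The falls ran from -0.53 to -0.98 on the log2 scale and were largest in Mvd, Sqle and Dhcr7. Over all members 10 fell and 3 rose, beside 12.6% of all tested genes that fell and 26.4% that rose. The share of sterol enzymes that fell was 44.4%, and 17 of 18 lay below 0, beside 39.6% of all genes. The median difference of the sterol enzymes was -0.40 and that of all tested genes 0.14. With litter as a random block (estimated correlation 0.566) 5 sterol enzymes fell. That correlation rests on the 3 presumed pairs, of which only KODam_HetFetus replicates 1 and 2 lie in this comparison. Without the 5 libraries with transcripts of other tissues 2 fell, 15 of 18 lay below 0, beside 36.4% of all genes, and the median of all members moved from -0.26 to -0.12.

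Mvd (chromosome 8, 122433596 to 122443422, GRCm38.p6), the decarboxylase that makes isopentenyl diphosphate, stood at 3.59, 3.31, 3.53 and 3.17 in HetDam_HetFetus and 2.27, 2.91, 2.13 and 2.38 in KODam_HetFetus replicates 1 to 4. Every fetus of a knockout dam was below every control, and the mean fell from 3.40 ± 0.193 (SD, n = 4) to 2.42 ± 0.339. The difference was -0.98 ± 0.223, or 1.97-fold lower, with a limma adjusted p of 0.00260. Sqle (chromosome 15, 59315092 to 59331193), squalene epoxidase, a rate-limiting enzyme of the pathway, stood at 4.85, 4.67, 5.16 and 4.96 in the controls and 3.79, 4.40, 3.91 and 4.12 in KODam_HetFetus. The groups again did not overlap, and Sqle fell by 0.85 on the log2 scale (standard error 0.210, adjusted p = 0.00427). These 2 calls held under all 21 alternative settings, the left-out libraries included.

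The other 6 calls below 0 in the sterol pathway were of Acat2, Pmvk, Msmo1, Ebp, Dhcr7 and Cyp51. Acat2, the cytosolic acetoacetyl-CoA thiolase, stood at 4.91, 4.45, 4.67 and 4.78 in the controls and 3.72, 4.23, 4.06 and 4.25 in KODam_HetFetus, without overlap (-0.64 ± 0.188, adjusted p = 0.0122). Pmvk, phosphomevalonate kinase, stood at 3.88, 3.68, 3.65 and 3.90 and 2.70, 3.62, 2.74 and 3.27, where KODam_HetFetus replicates 1 and 3 were low and replicate 2 came just under the lowest control (-0.69 ± 0.229, adjusted p = 0.0226). The same replicates 1 and 3 were the lowest of their group for Mvd, Sqle, Pmvk, Cyp51 and Dhcr7. Msmo1, the methylsterol monooxygenase, stood at 5.39, 5.32, 5.69 and 5.59 and 4.57, 5.08, 4.94 and 5.18, without overlap (-0.55 ± 0.179, adjusted p = 0.0204). Ebp, the sterol isomerase, stood at 4.78, 4.78, 4.56 and 4.83 and 3.88, 4.12, 4.35 and 4.38, also without overlap (-0.55 ± 0.153, adjusted p = 0.00887). For these 6 enzymes, Mvd and Sqle included, every fetus of a knockout dam lay below every control, beside 11.8% of all genes, while the remaining 2 overlapped. Dhcr7 stood at 4.09, 3.33, 3.76 and 4.19 and 2.94, 3.61, 2.66 and 3.14, and there HetDam_HetFetus replicate 2 lay below KODam_HetFetus replicate 2 (-0.75 ± 0.234, adjusted p = 0.0163). Cyp51, the lanosterol demethylase, stood at 3.69, 3.16, 3.89 and 3.91 and 3.09, 3.55, 2.80 and 3.11, overlapping in the same pair of libraries (-0.53 ± 0.206, adjusted p = 0.0492).

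Hsd17b7, the sterol ketone reductase, which is also known for reducing estrone, went the other way. It stood at 1.77, 1.82, 2.34 and 1.44 in the controls and 2.34, 2.23, 2.87 and 3.33 in KODam_HetFetus, highest in replicates 3 and 4, with HetDam_HetFetus replicate 3 inside the range of the knockout-dam fetuses. It rose by 0.85 on the log2 scale (adjusted p = 0.0118). The 9 sterol enzymes without a call lay between -0.40 (Hmgcs1, HMG-CoA synthase, adjusted p = 0.296) and -0.0426 (Tm7sf2, a sterol reductase). Lss, Fdft1, Idi1, Fdps, Nsdhl, Sc5d and Mvk lay between these, all below 0. Fdft1, squalene synthase (-0.36 ± 0.165, adjusted p = 0.0931), was called lower without KODam_HetFetus replicate 2 (-0.49, adjusted p = 0.0282). Idi1, the isopentenyl diphosphate isomerase, had the widest spread among them, with 1.82, 1.09, 3.34 and 2.53 in the controls.

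The count of falling sterol enzymes depended on the libraries, on how litters were treated and, for Cyp51, on the model. With litter as a random block Pmvk (-0.71, adjusted p = 0.0524), Cyp51 (-0.57, adjusted p = 0.0682) and Msmo1 (-0.53, adjusted p = 0.0506) were not called. The count was 4 without KODam_HetFetus replicate 1, 5 without KODam_HetFetus replicate 3, without HetDam_HetFetus replicate 4 or without both presumed littermates (KODam_HetFetus replicates 1 and 2), and 2, Mvd and Sqle, without the 5 libraries with transcripts of other tissues. Leaving out 1 library ended the calls of Acat2 (-0.53, adjusted p = 0.0507 without KODam_HetFetus replicate 1), Msmo1 (adjusted p 0.0582 to 0.0820 without KODam_HetFetus replicate 1 or HetDam_HetFetus replicate 3), Dhcr7 (0.0542 to 0.0574 without KODam_HetFetus replicate 3 or HetDam_HetFetus replicate 4), Pmvk (0.0511 to 0.0820 without replicate 1 of either group, KODam_HetFetus replicate 3 or HetDam_HetFetus replicate 4) and Cyp51 (0.0850 to 0.143 without any of replicates 1, 3 and 4 of either group). Cyp51 was also not called with fetal sex or with only the compared groups in the fit (adjusted p = 0.0555 and 0.0680). Nor was it called without the filter on low values or without limma's mean-variance trend (0.0657 and 0.0566), and its call held in 9 of 21 settings. Hsd17b7 was not called without the 5 libraries (0.62, adjusted p = 0.158).

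**Figure D3:**
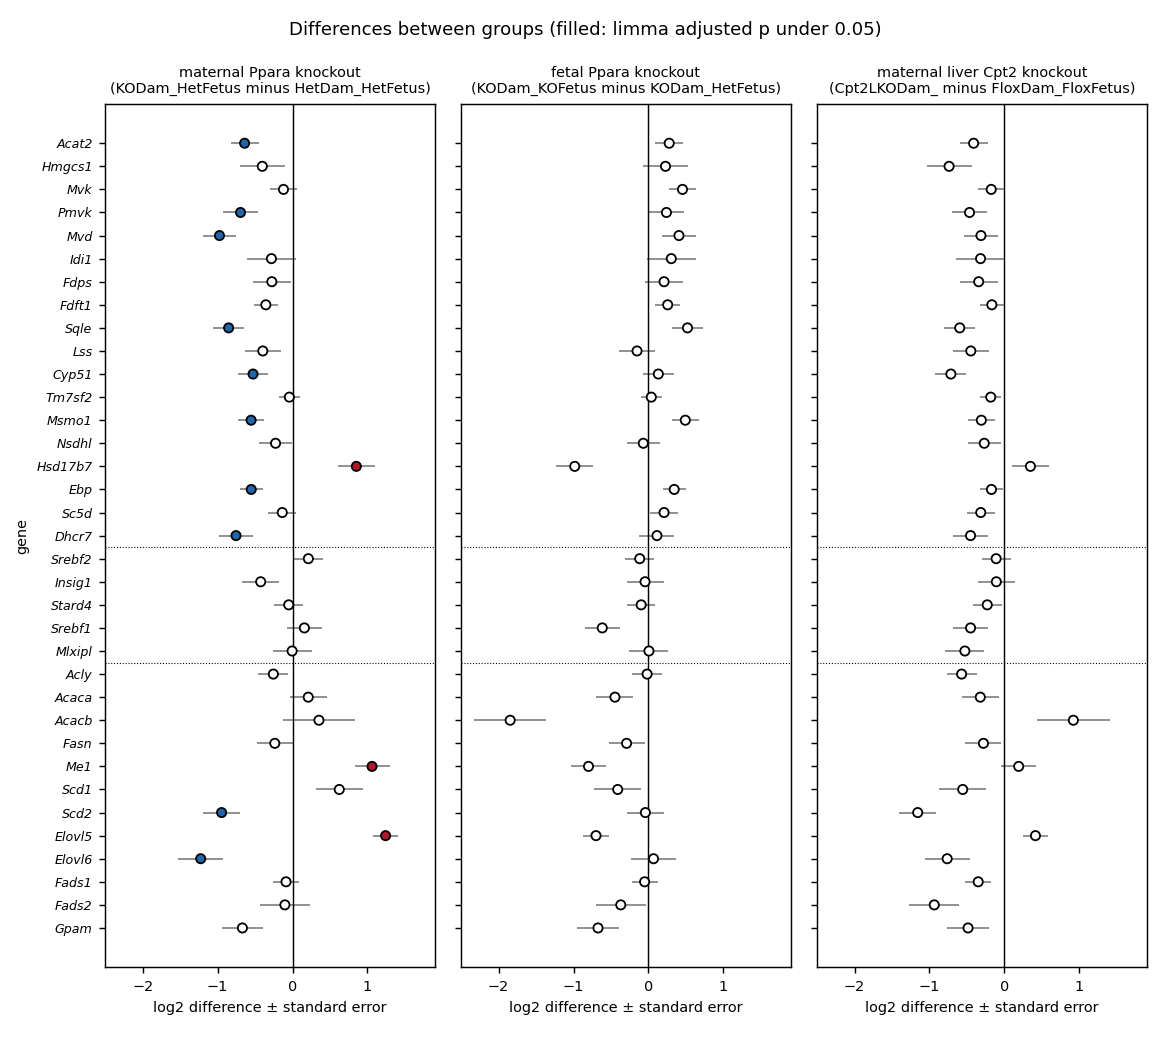
Points are log2 differences between group means of the 35 tested genes in 3 comparisons, with the standard error as a bar (4 libraries per group). Filled points passed limma's adjusted p of 0.05, blue lower and red higher, and dotted lines part the sterol enzymes, the regulators and the fatty acid genes. Filled points occur in the maternal Ppara panel, 10 lower and 3 higher, and in neither other panel, while 31 of 35 points lie left of 0 in the Cpt2 panel.

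Of 12 tested fatty acid genes, 2 rose (Elovl5 and Me1) and 2 fell (Elovl6 and Scd2). These shares, 16.7% each, are near the 26.4% and 12.6% of all genes, so the counts show nothing about the group, and its median was -0.0944. Elovl5 (chromosome 9, 77917365 to 77984519, GRCm38.p6), the elongase of polyunsaturated fatty acids, stood at 2.73, 2.35, 2.61 and 2.48 in HetDam_HetFetus and 3.62, 3.61, 3.89 and 4.02 in KODam_HetFetus. Every fetus of a knockout dam was above every control by at least 0.8, and Elovl5 rose 2.37-fold (1.24 ± 0.171 on the log2 scale, adjusted p = 0.000141). Me1 (chromosome 9, 86581363 to 86695914), the cytosolic malic enzyme, which supplies NADPH and is also a known PPARA target, stood at -0.13, -0.87, -0.51 and 0.0764 and 0.46, 0.79, 0.33 and 1.22. Its groups did not overlap, and it rose by 1.06 (adjusted p = 0.00201). Among all genes 24.5% were higher and 11.8% lower without overlap, so such separation is common in this comparison. Both calls held under every alternative setting that tested them, 21 for Elovl5 and 20 for Me1, although Me1 is low and its difference shrank to 0.24 with a pseudocount of 4.

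Elovl6 (chromosome 3, 129532386 to 129638495), the elongase that lengthens palmitate, stood at 3.20, 3.12, 3.75 and 4.06 in the controls and 1.95, 2.10, 2.33 and 2.85 in KODam_HetFetus, so every library of a knockout dam was lower. It fell by 1.23, 2.34-fold, with an adjusted p of 0.00408, and was not called without the presumed littermates (-0.95, adjusted p = 0.0696). Scd2 (chromosome 19, 44293676 to 44306864), a stearoyl-CoA desaturase prominent in fetal and brain tissue, stood at 5.14, 4.46, 5.04 and 5.69 and 3.95, 4.50, 3.75 and 4.33, with HetDam_HetFetus replicate 2 just below the highest KODam_HetFetus library. It fell by 0.95 (adjusted p = 0.00652), and was not called without the 5 libraries (-0.61, adjusted p = 0.139). Its paralog Scd1 differed by 0.62 ± 0.315 in the other direction (adjusted p = 0.122). Scd1 was called higher without HetDam_HetFetus replicate 4 (0.88, adjusted p = 0.0347) and without the 5 libraries (1.06, adjusted p = 0.0304). Whether the authors' counting shared reads between Scd1 and Scd2 is unknown. Gpam, the mitochondrial glycerol-phosphate acyltransferase that starts triglyceride synthesis, differed by -0.67 ± 0.279 (adjusted p = 0.0637) and was called lower under both other scalings and without HetDam_HetFetus replicate 2 or KODam_HetFetus replicate 4 (-0.85 for each). The core enzymes of the pathway gave no call: Acly -0.26, Acaca 0.21 and Fasn -0.24, and neither did the desaturases Fads1 (-0.0870) and Fads2 (-0.10) nor Acacb, the mitochondrial acetyl-CoA carboxylase (0.35 ± 0.483).

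None of the 5 regulators was called. Srebf2 differed by 0.21 (95% interval -0.19 to 0.62, adjusted p = 0.403) and Srebf1 by 0.16 (-0.33 to 0.65, adjusted p = 0.617), so no change of either transcript was shown. Insig1, a known SREBP target whose product retains SREBPs, differed by -0.42 (-0.94 to 0.0917, adjusted p = 0.180). Stard4, a cytosolic sterol carrier, and Mlxipl differed by -0.0509 and -0.00556. The interval of Insig1 holds differences as large as the fall of Sqle, and those of Srebf2 and Srebf1 do not.

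**Figure D4:**
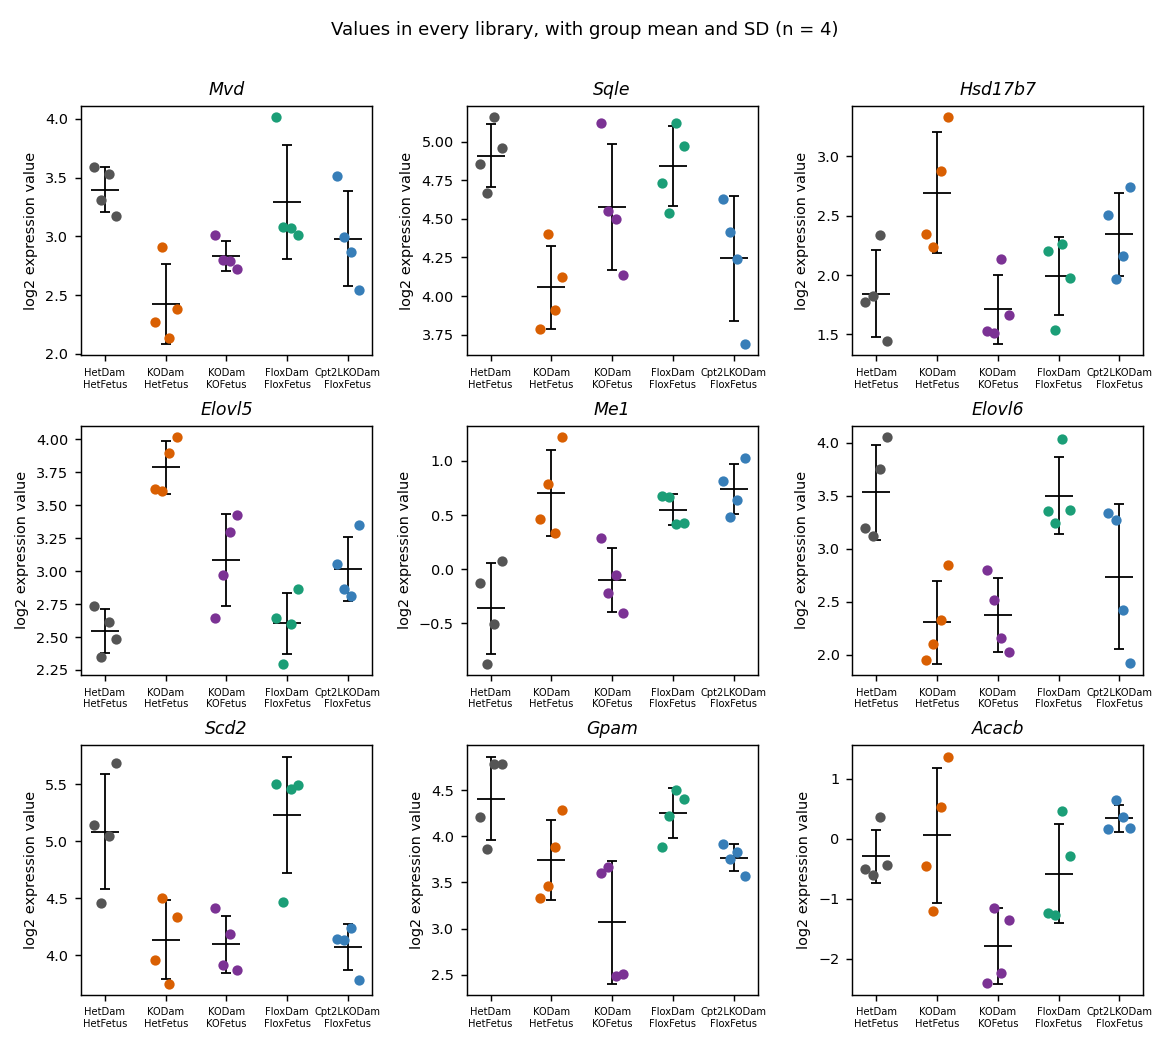
Points are the log2 values of 9 genes in every library (left to right, replicates 1 to 4), with the mean and SD of the 4 libraries of each group. Mvd, Sqle, Elovl5, Me1 and Elovl6 do not overlap between HetDam_HetFetus and KODam_HetFetus, Scd2 is low in every KODam and Cpt2LKODam group, and Gpam and Acacb are lowest in KODam_KOFetus.

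Promoter sequence is shown for the sterol enzyme with the largest fall (Mvd), the member with the largest rise (Elovl5) and Hmgcs1, the sole sterol enzyme here whose window matched the sterol regulatory element that was searched. Each line is the 250 bases before the RefSeq start, read on the gene's strand (GRCm38.p6), in lower case with every motif match in capitals. The windows are chr13:119690101-119690350 (plus strand) for Hmgcs1, chr8:122443423-122443672 (minus) for Mvd and chr9:77917115-77917364 (plus) for Elovl5, each just outside the first exon.
Hmgcs1: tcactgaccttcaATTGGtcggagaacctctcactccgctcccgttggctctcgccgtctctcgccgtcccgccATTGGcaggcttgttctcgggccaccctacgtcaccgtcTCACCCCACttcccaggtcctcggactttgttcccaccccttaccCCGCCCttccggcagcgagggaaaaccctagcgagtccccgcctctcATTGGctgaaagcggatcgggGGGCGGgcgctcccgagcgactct
Mvd: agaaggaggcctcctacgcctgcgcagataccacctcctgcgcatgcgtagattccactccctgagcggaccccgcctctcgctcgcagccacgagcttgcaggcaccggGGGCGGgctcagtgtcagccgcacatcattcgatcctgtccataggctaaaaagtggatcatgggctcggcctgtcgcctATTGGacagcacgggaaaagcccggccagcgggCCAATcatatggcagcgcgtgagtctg
Elovl5: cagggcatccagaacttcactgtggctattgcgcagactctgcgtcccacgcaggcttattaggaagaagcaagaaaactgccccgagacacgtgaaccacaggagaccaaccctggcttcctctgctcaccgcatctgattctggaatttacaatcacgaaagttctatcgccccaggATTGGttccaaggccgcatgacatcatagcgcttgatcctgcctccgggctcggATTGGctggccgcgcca
The capitals in Hmgcs1 are the sterol regulatory element TCACCCCAC, 137 bases before the start, CCAAT boxes (read here as ATTGG, on the opposite strand) and Sp1 boxes (GGGCGG or CCGCCC). Mvd has CCAAT in both orientations and GGGCGG, and Elovl5 has ATTGG 2 times. Over the members, RefSeq windows were found for 29 of 36 genes (37 windows). TCACNCCAC, on either strand, was in 2 of these windows (Hmgcs1 and Mlxipl), 5.41%, beside 1.05% of 32851 windows of all genes. CCAAT was in 67.6% of member windows and 33.8% of all, and GGGCGG in 64.9% and 32.7%. The E-box TCACGTGA and the direct repeat 1 element, the type that PPARA binds, matched no member window, and 0.785% and 0.0335% of all. None of the 5 motifs contains another. A match is a description of letters and not a measured site.

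Beyond the 36 members, 5 lists of neighbouring genes were counted in the same comparison, beside 26.4% of all tested genes that rose and 12.6% that fell. Of 9 genes that process SREBPs, 4 rose, among them Rnf145, a ubiquitin ligase of sterol-regulated degradation (0.37, adjusted p = 0.0111), Rnf139 and Mbtps2, and Scap, the SREBP escort, fell by 0.67 (adjusted p = 0.00880). Without the 5 libraries Scap was not called, with an adjusted p of 0.0953. Of 11 further sterol and isoprenoid genes, Lbr, a sterol reductase of the nuclear envelope, rose (0.57, adjusted p = 0.00673), as did Nus1 (0.39), while Aacs, which turns ketone-derived acetoacetate into acetoacetyl-CoA, fell (-0.96, adjusted p = 0.00288). Of 9 genes that supply citrate, acetyl-CoA and NADPH, 4 fell, among them Mdh1 (-0.54, adjusted p = 0.0185), Pgd (-0.36, adjusted p = 0.0263) and Slc25a1 (-0.29, adjusted p = 0.0440). The calls of these 3 genes and of the fourth, G6pdx, were lost without KODam_HetFetus replicate 1 or replicate 2 and without some other single libraries (adjusted p 0.0521 to 0.137), and none of the 4 was called with litter as a random block. Of 13 tested elongation and glycerolipid genes, 6 fell and 1 rose. Dgat2, the liver's main triglyceride synthase, fell (-0.89, adjusted p = 0.000624), as did Hacd2, the dehydratase of fatty acid elongation (-0.81, adjusted p = 0.00163), and Agpat2 (-1.11, adjusted p = 0.00736). Of 12 tested genes of LXR signalling, sterol efflux and storage, Nr1h3, which encodes LXR alpha, fell (-1.72, adjusted p = 0.000490) with Soat1, which esterifies cholesterol (-1.15, adjusted p = 0.00251), and Lpcat3 rose (0.69, adjusted p = 0.000228) with Mylip. Counts in this list and in the further sterol list were near the shares of all genes, so they show nothing about these lists. Leaving out HetDam_HetFetus replicate 1 or 2 or KODam_HetFetus replicate 1, 3 or 4 also ended calls of Mbtps2, Rnf139 or Nus1 (adjusted p 0.0521 to 0.0850), Rnf139 was not called with litter as a random block, and Lbr, Rnf145 and Agpat2 were not called without the presumed littermates. Like Scap, the genes Mbtps2, Rnf139, Nus1, Mdh1, Pgd, Slc25a1, G6pdx and Mylip were not called without the 5 libraries. Mbtps2 and Rnf139 were not called with quantile normalization, nor Rnf139 and Rnf145 with trimmed-mean centring. The calls of Aacs, Dgat2, Hacd2, Nr1h3, Soat1 and Lpcat3 held under every alternative setting.

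Cell markers were counted in the same comparison, beside 26.4% of all tested genes that rose and 12.6% that fell. Of 13 proliferation genes 9 rose, their summed level being 8.21 to 8.83 in HetDam_HetFetus and 8.88 to 9.60 in KODam_HetFetus, and 5 rose with litter as a random block. Of 10 neutrophil and myeloid genes 7 fell (12.20 to 12.82 against 11.46 to 12.20), and of 7 macrophage genes 4 fell and 1 rose (7.71 to 8.16 against 7.80 to 7.97). Of 16 hepatocyte genes 1 rose and 2 fell (16.40 to 17.16 against 16.29 to 16.75), and of 9 tested erythroid genes 2 rose (17.38 to 17.74 against 17.72 to 17.82). The hepatocyte and erythroid counts are near or below the shares of all genes, so they show nothing about these cells. Of 6 adrenal and steroidogenic genes only Cyp17a1 and Hsd3b1 reached the minimum level, and both fell (-1.41, adjusted p = 0.0174 and -2.86, adjusted p = 0.00229). Their list's summed level did not overlap between groups, at 6.12 to 6.70 in HetDam_HetFetus and 2.30 to 5.21 in KODam_HetFetus. None of 5 adipose genes reached the minimum level. Their summed level on the linear scale was 0 to 0.0722 in HetDam_HetFetus, where replicate 1 had no value for any of them, 0.370 to 1.16 in KODam_HetFetus and 0.216 to 0.936 in KODam_KOFetus, so neither group of knockout dams overlapped the controls. The part of these cells in the member differences was not tested.

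Loss of Ppara in the fetus itself was examined among fetuses of knockout dams, KODam_KOFetus against KODam_HetFetus. These groups share no number in the sample descriptions, so they hold no presumed littermates of each other. Fetal genotype therefore cannot be told apart from litter or dam here. No member was called in either direction, beside 0.0254% of all tested genes called higher and 0.796% lower by limma, while 4 members had an unadjusted p under 0.05 above 0 and 6 below it, beside 5.3% and 5.6% of all genes. The fatty acid genes had a median of -0.39 and lay below 0 in 11 of 12, beside 52.5% of all genes. The sterol enzymes had a median of 0.23, with 15 of 18 above 0. No member was called without the 5 libraries either, and 13 of 35 lay below 0 in place of 18, beside 56.9% of all genes. Acacb, which makes the malonyl-CoA that restrains mitochondrial fatty acid import, stood at -0.46, -1.20, 0.53 and 1.37 in KODam_HetFetus and -2.41, -1.16, -2.23 and -1.35 in KODam_KOFetus, overlapping only in replicate 2 of each group. Its difference was -1.85 ± 0.483 (adjusted p = 0.111). Hsd17b7 stood at 1.53, 1.52, 2.14 and 1.66 in the knockout fetuses, all below the 4 heterozygous ones (-0.98 ± 0.249, adjusted p = 0.0861). Elovl5 stood at 2.65, 2.97, 3.30 and 3.43, again below all 4 (-0.70 ± 0.171, adjusted p = 0.0661), and Me1 at 0.29, -0.22, -0.0537 and -0.40, also below (-0.80 ± 0.233, adjusted p = 0.185). Members whose libraries did not overlap numbered 4 lower (Hsd17b7, Elovl5, Me1 and Acaca) and 3 higher (Mvk, Msmo1 and Idi1). The shares of all genes were 4% and 1.67%.

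Several of these differences crossed the threshold under other settings. Elovl5 was called lower under both other scalings, with a pseudocount of 4, with the replicate number or fetal sex in the fit, and without KODam_KOFetus replicate 3 or 4 (-0.77, adjusted p = 0.0461 and -0.81, adjusted p = 0.0310). Hsd17b7 was called lower without KODam_HetFetus replicate 2 (-1.14, adjusted p = 0.0467) or KODam_KOFetus replicate 3 (-1.13, adjusted p = 0.0398), and Acacb without KODam_HetFetus replicate 2 (-2.27, adjusted p = 0.0208). Both were called lower without KODam_HetFetus replicates 1 and 2 (-1.39, adjusted p = 0.0125 and -2.74, adjusted p = 0.00579). Of the sterol enzymes, Msmo1 (0.49, adjusted p = 0.354), Sqle (0.52, 0.398) and Mvk (0.45, 0.380) had the largest differences above 0, and none of them was called under any setting. Srebf1 differed by -0.62 ± 0.235 (95% interval -1.11 to -0.13, adjusted p = 0.365). In the neighbouring lists Lpcat3, a phospholipid-remodelling enzyme, was the only gene called, and it fell (-1.03, adjusted p = 7.96e-06). The fetal and the maternal comparison share KODam_HetFetus, with opposite sign, so opposite differences in them are not independent.

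With Ppara lost in dam and fetus (KODam_KOFetus against HetDam_HetFetus), 4 members fell, all fatty acid genes, and 1 rose, beside 7.31% and 17.4% of all tested genes. None of the 18 sterol enzymes was called by limma, although 3 had an unadjusted p under 0.05 below 0 (11.9% of all genes) and 15 lay below 0 (37.7% of all genes), with a median of -0.19 beside 0.14 for all genes. Under other settings 1 sterol enzyme was called lower: Dhcr7 with trimmed-mean centring, quantile normalization, a pseudocount of 4 or the stricter filter (-0.64, adjusted p = 0.0442), and Mvd with the replicate block (-0.57, adjusted p = 0.0370). With only the compared groups in the fit 3 were called lower, Pmvk, Mvd and Dhcr7. Gpam (chromosome 19, 55067635 to 55127319, GRCm38.p6) stood at 4.21, 3.86, 4.79 and 4.78 in the controls and 3.61, 3.67, 2.48 and 2.51 in KODam_KOFetus, where replicates 3 and 4 were more than 1 log2 unit below replicates 1 and 2. All 4 were below every control, and Gpam fell by 1.34, 2.54-fold (adjusted p = 0.00275), a call that held under all 20 alternative settings. Its split runs along a presumed litter, since KODam_KOFetus replicates 1 and 2 share a description number, and no setting left out both of them. Elovl6 stood at 2.80, 2.52, 2.16 and 2.02 in KODam_KOFetus, again below every control (-1.16 ± 0.300, adjusted p = 0.0103). Scd2 stood at 4.41, 3.91, 4.18 and 3.87, all below the controls (-0.99 ± 0.250, adjusted p = 0.00907). For Acacb the 4 knockout fetuses lay below the 4 controls, at -0.50, -0.60, 0.36 and -0.44 (-1.49 ± 0.483, adjusted p = 0.0310). Elovl5 rose by 0.54 (adjusted p = 0.0272), with KODam_KOFetus replicate 1 within the control range. Members whose libraries did not overlap numbered 7 lower and 1 higher, beside 7.29% and 19.1% of all genes.

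Without the 5 libraries with transcripts of other tissues only Gpam stayed called, 12 of 18 sterol enzymes lay below 0, beside 37.3% of all genes, and the median of all members moved from -0.24 to -0.0369. With litter as a random block Acacb was not called (-1.49, adjusted p = 0.0536). Elovl5 also lost its call without HetDam_HetFetus replicate 2 or 4 or KODam_KOFetus replicate 3 or 4 (0.43 to 0.52, adjusted p 0.0605 to 0.10), and Acacb without HetDam_HetFetus replicate 3 or 4 or KODam_KOFetus replicate 1 or 3 (-1.54 to -1.28, adjusted p 0.0524 to 0.0912). Acacb is low, and with a pseudocount of 4 its difference was -0.17, adjusted p = 0.178. Mvd (-0.57, adjusted p = 0.0686) and Dhcr7 (-0.64, adjusted p = 0.0516) were the sterol enzymes nearest to a call, and Dhcr7 was called without HetDam_HetFetus replicate 2 (-0.81, adjusted p = 0.0235), as was Lss (-0.75, adjusted p = 0.0341). Hsd17b7 (-0.13) and Me1 (0.26) gave no call. Of the neighbouring lists, elongation and glycerolipid genes had 5 of 13 lower and none higher, with the smallest adjusted p in Dgat2 (-0.93, adjusted p = 0.00104) and Hacd3 (-0.77, adjusted p = 0.00532), and LXR, efflux and storage genes 5 of 12 lower, with the smallest in Soat1 (-0.95, adjusted p = 0.0141). The processing genes had 2 higher and 1 lower of 9, Scap being lower again (-0.76, adjusted p = 0.00743), and neither Scap nor Soat1 was called without the 5 libraries. Proliferation genes (7 of 13 higher) and neutrophil and myeloid genes (4 of 10 lower) moved in this comparison too, as did Cyp17a1 and Hsd3b1, and their part was not tested. These list and marker counts stand beside 17.4% of all tested genes higher and 7.31% lower.

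Loss of Cpt2 in the dam's liver, with the fetal alleles floxed but not deleted, was examined by setting Cpt2LKODam_FloxFetus against FloxDam_FloxFetus. No member was called, and limma called 0% of all tested genes in this comparison. Of the 35 tested members, 1 had an unadjusted p under 0.05 above 0 and 8 below it, beside 5.53% and 5.57% of all genes. By direction alone 31 of 35 members lay below 0, among them 17 of 18 sterol enzymes and all 5 regulators, beside 51.1% of all genes, and their median was -0.32 beside -0.00681. Without the 5 libraries, 2 of them in this arm, 29 of 35 members and 17 of 18 sterol enzymes lay below 0, beside 50.1% of all genes, and the members' median was -0.34. FloxDam_FloxFetus replicate 1, not among those 5, had the highest sterol mean (0.70). It stood above its group for Mvd (4.02, next 3.08), Fdft1 (4.32, next 3.69), Tm7sf2 (5.22, next 4.57) and Msmo1 (6.16, next 5.35). The Cpt2LKODam_FloxFetus means of these genes were 2.98, 3.65, 4.54 and 5.22. How far the signs rest on this library was not tested. Members whose libraries did not overlap numbered 3, all lower (Scd2, Fads2 and Cyp51), beside 2.87% of all genes.

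Scd2 stood at 5.51, 4.46, 5.46 and 5.49 in FloxDam_FloxFetus and 4.14, 4.14, 4.24 and 3.78 in Cpt2LKODam_FloxFetus, so every fetus of a Cpt2-deleted dam was below every control, the low control being replicate 2. The difference was -1.16 ± 0.250 (95% interval -1.68 to -0.63, adjusted p = 0.272). Fads2, the desaturase that starts polyunsaturated fatty acid synthesis, stood at 3.56, 2.76, 3.60 and 3.63 and 2.70, 2.23, 2.33 and 2.56 (-0.94 ± 0.331, adjusted p = 0.373). Again replicate 2 was the low control. Cyp51 stood at 4.23, 3.34, 3.68 and 3.74 and 3.32, 3.14, 2.99 and 2.69, with replicate 2 of the controls barely above the highest Cpt2LKODam library (-0.71 ± 0.206, adjusted p = 0.346). Elovl6 split the Cpt2LKODam group, at 3.34, 3.28, 2.42 and 1.92, replicates 3 and 4 low, against 3.36, 3.24, 4.04 and 3.37 in the controls (-0.76 ± 0.300, adjusted p = 0.384). Hmgcs1 stood at 6.25, 5.17, 5.77 and 5.89 and 5.31, 4.89, 5.07 and 4.86 (-0.74 ± 0.300, adjusted p = 0.395), and Sqle differed by -0.60, Acly by -0.57 and Mvd by -0.31. The 4 members above 0 were Acacb (0.92 ± 0.483, adjusted p = 0.485), Elovl5 (0.42 ± 0.171, adjusted p = 0.395), Hsd17b7 (0.35 ± 0.249) and Me1 (0.19 ± 0.233). For Acacb 3 of the 4 Cpt2LKODam libraries (0.16, 0.65, 0.37 and 0.19) lay inside the wide control range of -1.26 to 0.46, and replicate 2 lay above it. No gene of the 5 neighbouring lists was called in this comparison.

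Set side by side, the 2 maternal comparisons, which share no library, had the same sign in most members. Both differences were below 0 in 27 of 35 members (77.1%), in 17 of 18 sterol enzymes (94.4%) and in 7 of 12 fatty acid genes (58.3%), beside 30.9% of all tested genes. Both were above 0 in 4 members, Elovl5, Me1, Hsd17b7 and Acacb, and the signs differed in 11.4% of members beside 28.8% of all genes. Without the 5 libraries both were below 0 in 21 of 35 members and 15 of 18 sterol enzymes, beside 28.7% of all genes. Signs carry no test, and the members vary together within groups. How far the signs of the Cpt2 arm rest on FloxDam_FloxFetus replicate 1 was not tested. The difference between the 2 maternal effects was tested directly and called no member and 0% of all genes by limma, with 3 members above 0 and 1 below at an unadjusted p under 0.05, beside 15.5% and 4.36% of all genes. The largest were Scd1 (1.18 ± 0.445, adjusted p = 0.173), Me1 (0.87 ± 0.330, 0.174), Fads2 (0.83 ± 0.468, 0.319) and Elovl5 (0.83 ± 0.241, 0.129), all more positive for maternal Ppara. Without Cpt2LKODam_FloxFetus replicate 4 Elovl5 was called (0.94, adjusted p = 0.0431). For Mvd the difference was -0.66 ± 0.315 (95% interval -1.32 to -0.00370, adjusted p = 0.250), so a larger fall with maternal Ppara loss was not shown.

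The control groups of the arms, HetDam_HetFetus and FloxDam_FloxFetus, differed in no member called by limma, beside 0.136% of all genes, and 2 members had an unadjusted p under 0.05, both lower in HetDam_HetFetus, beside 15.8% of all genes. These were Me1 (-0.91 ± 0.233, adjusted p = 0.121) and Scd1 (-0.85 ± 0.315, adjusted p = 0.207). Me1 stood at 0.67, 0.67, 0.42 and 0.43 in FloxDam_FloxFetus, above all 4 libraries of HetDam_HetFetus. Its rise with maternal Ppara loss therefore brought it to 0.70 ± 0.396 (SD, n = 4), beside 0.55 ± 0.144 in FloxDam_FloxFetus and 0.74 ± 0.234 in Cpt2LKODam_FloxFetus. No member was called without the 5 libraries either, and 24 of 35 lay below 0 in place of 20, beside 73.1% of all genes. The other 33 tested members differed between the control groups by -0.34 to 0.35.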

How the data were processed

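Stranded mRNA libraries of Trizol-extracted fetal liver RNA were sequenced as single reads of 75 nucleotides, per the labels' protocols. The submitters' processing notes name bcl2fastq 2.17.1.14, Partek 7.0 and the build GRCm38.p6. How reads were aligned and counted, and whether strand was used, is not given in the sources used here. The deposited values are on a log2 scale (base 2 presumed from their range) of a quantity the table does not name, and the authors had quantile-normalized them, since all libraries share quartiles within 4.15e-05. Blanks were kept missing. Counts cannot be recovered, so depth is unknown. From 23334 to 26255 genes had a value per library, and precision rests on 4 libraries per group.

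The 20 libraries were fitted together with limma 3.58.1 in R 4.3.3 (a mean per group, eBayes with trend, 15 residual and 4.09 prior degrees of freedom, two-sided) over 11807 genes with a log2 value of at least 0 in at least 4 libraries, with Benjamini-Hochberg adjustment over all genes of each of 6 comparisons. The step was run on simulated data with independent noise in each library and no shared litters, so it cannot test the effect of littermates. Members, lists and alternatives were chosen with earlier results of these data known. Values are printed per library for members called in any comparison or described as nearest to a call, and up to 3 called genes per neighbouring list and comparison are named with values, while further called genes of those lists were named after their values were seen, and 1 gene of these lists is not reported here. Alternatives covered scaling, pseudocounts of 0.1 and 4, filters, litter, the replicate number, fetal sex, the groups fitted, the mean-variance trend and left-out libraries. Of the 3 presumed littermate pairs, only that of KODam_HetFetus was left out as a pair. Leaving out the 5 libraries with transcripts of other tissues was added after the data were seen. These were libraries whose summed markers of muscle, pancreas, stomach and intestine or skin reached 8 times the median and a linear sum of 4. Motifs were searched in the 250 bases before RefSeq starts of GRCm38.p6, on both strands.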

Additional observations from a re-analysis of the deposited data

Results flagged for a closer look

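In 15 of 192 sets of 4 libraries (a member or a branch mean in 1 group) the highest or lowest library stood apart from the other 3 by Dixon's ratio, where chance flags about 1 in 20. FloxDam_FloxFetus replicate 1 stood above the others of its group for Mvd (4.02), Fdft1 (4.32), Tm7sf2 (5.22) and Msmo1 (6.16), 4 sterol enzymes. FloxDam_FloxFetus replicate 2 stood below its group for Scd2 (4.46), Fads1 (3.69), Fads2 (2.76) and Mlxipl (1.89), and for the mean deviation of the 5 regulators (-0.45). FloxDam_FloxFetus replicate 3 stood above for Elovl6 (4.04). Of the 15, 10 lie in this control group.

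Cpt2LKODam_FloxFetus replicate 1 stood above for Msmo1 (5.60) and replicate 4 below for Dhcr7 (2.77). KODam_HetFetus replicate 3 stood below for Srebf2 (3.87) and replicate 4 above for Fasn (2.79). HetDam_HetFetus replicate 3 stood above for Acacb (0.36).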

How the results depend on the processing

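No called member difference reversed under any of 33 alternative settings. Over all members and settings a call was lost 49 times and gained 36 times. Of values called in neither fit, 217 of 4160 changed sign. For maternal Ppara loss the members called lower, 10 as reported, numbered 6 without the presumed littermates and 3 without the libraries with transcripts of other tissues (HetDam_HetFetus then has 2 libraries). Leaving out 1 library gave 6 to 11 lower, 6 without KODam_HetFetus replicate 1, and 3 to 4 higher. For fetal Ppara loss the members called lower, 0 as reported, numbered 1 with trimmed-mean centring, a pseudocount of 4 or sex as a covariate, and 2 with quantile normalization of the tested genes, the replicate block or without the presumed littermates. Leaving out 1 library gave 0 to 2, 2 without KODam_HetFetus replicate 2 or KODam_KOFetus replicate 3. With both lost, the members called higher, 1 as reported, numbered 0 and those called lower, 4 as reported, 7 with only the groups compared in the fit. They numbered 0 and 1 without the libraries of other tissues, and leaving out 1 library gave 0 to 1 and 3 to 6. The difference of the maternal effects gave 0 to 1 higher on leaving out 1 library. The cause was not tested.

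The deposited scaling left the median of all tested genes at 0.14 for maternal Ppara loss, where trimmed-mean centring gave 0.0282 and quantile normalization of the tested genes 0.0516. All genes called higher and lower were then 2286 and 2180, or 2452 and 2003, in place of 3117 and 1483, and members 3 and 12, or 3 and 11. With both lost they were 1227 and 1346, or 1474 and 1165, in place of 2053 and 863. Whether replicate numbers pair libraries across groups was not tested: deviations of same-numbered libraries correlated at a median of 0.0677 (-0.378 to 0.482, 40 pairs), other pairs at -0.0243 (-0.546 to 0.503, 120 pairs). With the replicate block fetal Ppara loss gave 2 members lower, Elovl5 and Hsd17b7, and with both lost Mvd and Fasn (-0.53, adjusted p = 0.0358) were also called lower. Depth is unknown, which limits what can be said of low members such as Acacb, Me1 and Thrsp.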
